A study of Caenorhabditis elegans with 609 samples.

Results

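The genes described here were at or near 0 in some wild strains of the nematode *Caenorhabditis elegans* and above a set level in others, in part on a few reads only. They were selected on the measured values themselves. The TPM values (read numbers corrected for transcript length and library size) of all transcripts of a gene were summed, averaged over the cultures of a strain, and a gene was taken when its strain mean was below 0.1 TPM in at least 20 strains and at 5 TPM or more in at least 20 strains. Of 46929 genes, 183 met this rule. They made up 1.79% of the 10237 genes that reached 5 TPM in at least 20 strains. Because strain means chose the genes, their differences among strains are given as a description, without a test.

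The libraries were made from poly(A) RNA of intact hermaphrodites at the young adult stage. Animals were kept at 20 °C on plates with *E. coli* OP50 as food and were not treated. The groups are strains: 194 strains with 3 and 13 strains with 2 separately grown cultures entered the rule, and a further strain, JU2800, had 1 culture that the rule did not use. Each is an isolate from nature, except that N2 is the laboratory reference strain, and CB4856 is a strain from Hawaii known for its distance from N2. Total estimated counts per culture had a median of 28772489. Marker genes were read for the labelled stage and sex. The summed TPM of 6 yolk protein genes, which the adult hermaphrodite intestine makes, was at least 4283 in every strain (median 10725). That of 7 sperm protein genes was at least 42.1 (median 1111). The summed TPM of 6 genes of the male tail and seminal fluid ran from 0.851 to 56.9 over strains, with a median of 17.3. These values do not show whether single males were present. None of these markers was below 0.1 TPM in every strain.

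*C. elegans* wild strains are mostly self-fertilizing, so a strain is close to a single genotype. The arms of its chromosomes recombine more often and carry more sequence variation than the centres, and gene families that differ in number between strains lie mainly there. Among these families are genes for F-box proteins and for MATH and BTB domain proteins, which bring target proteins to cullin-based ubiquitin ligases for degradation. The reads of each strain were aligned to the N2 transcriptome with the single-nucleotide variants of that strain substituted, so that low RNA and a sequence that reads of the strain no longer match cannot be told apart in a value near 0. In whole animals, fewer cells of a type and less RNA per cell cannot be told apart either.

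The 183 genes fell into sets of very different precision. For 122 genes 1 read was worth under 0.5 TPM, so that a level of 5 TPM rested on more than 10 reads. In their cultures at 5 TPM or more, the median over these genes was 177 reads, and in their cultures below 0.1 TPM it was 0 reads. They are called the longer genes here. The other 61 are called short-transcript genes: their longest transcript had a median of 117 nucleotides, 1 read was worth 0.5 TPM or more, and the median in cultures at 5 TPM or more was 6 reads. This division was made after the values were seen, on the worth of a read and not on levels in strains.

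Cultures of a strain were seldom past opposite limits in the longer genes and more often in the short-transcript genes. A strain and a gene form a pair here, and the longer genes gave 25254 such pairs. In 401 of them (1.59%) a culture was below 0.1 TPM while another culture of the strain was at 5 TPM or more. In the short-transcript genes this was so in 2684 of 12627 pairs (21.3%). All cultures were past the same limit in 14551 pairs of the longer genes (57.6%) and in 4660 of the short-transcript genes (36.9%). In the remaining pairs at least 1 culture lay between the limits and none were on opposite sides. Of the 401 pairs, 200 came from 3 genes: ZK856.16 in 79 strains, the pseudogene B0513.12 in 76 strains and C48B4.9 in 45 strains. In the other longer genes the share was 0.816%, and none of these had such a disagreement in more than 9 strains. For all but 3 of the longer genes the cultures of a strain were thus seldom divided, whereas for these 3 genes and many short-transcript genes they were divided in 45 or more strains.

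**Figure D1:**
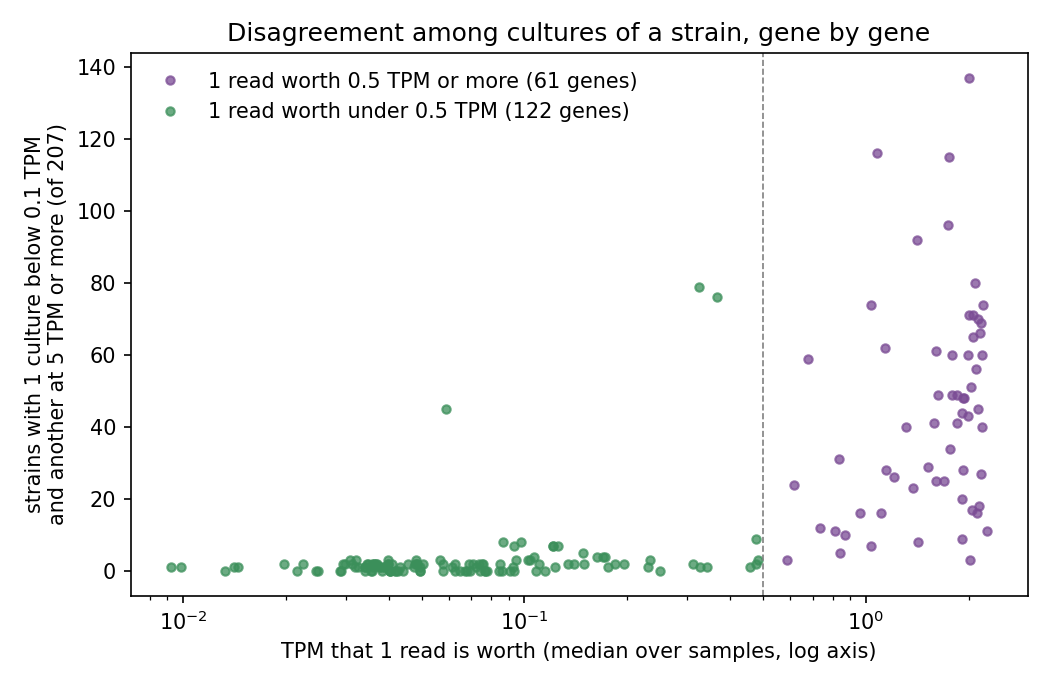
Each point is a gene, with the TPM that 1 read is worth on the horizontal axis (log scale) and, on the vertical axis, the number of strains in which a culture was below 0.1 TPM and another at 5 TPM or more. Nearly all longer genes (green, left of the dashed line at 0.5 TPM) lie close to 0, with 3 exceptions at 45, 76 and 79 strains, and the short-transcript genes (purple) reach 137 strains.

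Cultures that the rule had not used were past the same limit in most cases for the longer genes. The rule was applied to strain means without replicate 1, 2 or 3 of the strains with 3 cultures, and the state of each chosen gene was then read in the culture left out. Without replicate 1, 131 longer genes were chosen. Where their mean was past a limit, the culture left out was past the same limit in 88.3% of the pairs and past the opposite limit in 0.947%. For replicates 2 and 3 the shares were 88.0% and 86.9% on the same side, and 1.00% and 1.10% on the opposite side. For the short-transcript genes, 59.8% to 62.1% of the held-out values were on the same side and 16.0% to 17.0% on the opposite side. In the single culture of JU2800, 37 of the 122 longer genes were below 0.1 TPM, 48 were at 5 TPM or more and 37 lay between.

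Single libraries stood apart. Among 582 cultures of strains with 3 cultures, 448 had no longer gene on the opposite side of both other cultures of their strain, 123 had 1 to 4 such genes, and 11 had 5 or more. The highest numbers were 22 genes in culture 2 of JU1793 and 21 genes in culture 1 of BRC20067. Culture 2 of JU1793 had opposite states to its own strain in 23 of 69 longer genes that were past a limit in both (33.3%), and opposite states to the strain mean of JU360 in 0 of 85 genes. Culture 1 of BRC20067 had opposite states to its own strain in 28 of 71 genes (39.4%). Cultures 1 and 2 of BRC20263 differed in the same way from the rest of their strain, in 7 of 38 genes (18.4%) and in 15 of 52 genes (28.8%), and culture 1 had opposite states to the strain JU2466 in 0 of 67 genes. Over all cultures the median was 0% against the culture's own strain and 38.5% against other strains, and in 44 cultures some other strain was closer than their own. JU360 and JU2466 were taken as the closest of all other strains to these cultures. Among 21321 pairs of different strains, 9 pairs also had no longer gene in opposite states. Whether any library carries the wrong label was not tested. Without the 11 cultures, the rule took 188 genes, which include 182 of the 183.

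By the median over strains at 5 TPM or more, the highest genes were 2 short transcripts. Y113G7A.22, annotated as protein-coding on chromosome V, had 6087, 4757 and 8139 TPM in the cultures of NIC513, its highest strain. Over 149 strains at 5 TPM or more its strain mean ran between 6.86 and 6328 TPM with a median of 805 TPM, and in the 30 strains below 0.1 TPM it was exactly 0 in every one. ZK380.t2, a pseudogene on chromosome X, had a median of 772 TPM in 162 strains and was exactly 0 in 38 strains. One read was worth 2.26 and 1.92 TPM, so the medians of both genes stood for far more than a few reads. Their lowest strain means at 5 TPM or more, 6.86 and 7.67 TPM, did not. Between the limits lay 28 strains for Y113G7A.22 and 7 for ZK380.t2. The cultures of a strain could still differ widely, with 6715, 779 and 1364 TPM of ZK380.t2 in AB1. The rRNA gene rrn-4.15 had the highest strain mean of all members, 6409 TPM, but its cultures were divided: that strain, AB1, had 18660, 0 and 568 TPM, and in 115 strains a culture was below 0.1 TPM beside another at 5 TPM or more. T27A10.8, a non-coding RNA gene on chromosome X, had a median of 197 TPM in 68 strains, lay between 0.1 and 5 TPM in 105 strains and was exactly 0 in the 34 strains below 0.1 TPM, among them N2.

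Among the longer genes, nspd-5 (F11G11.8) on chromosome II, of a family of short nematode-specific peptides, had the highest median over strains at 5 TPM or more, although single strains reached more in pud-2.1 and pud-1.1. It had 1014, 1368 and 1239 TPM in the cultures of JU3140, 35.4, 5.18 and 63.4 TPM in those of CB4856, and 458, 344 and 331 TPM in those of N2. Its strain means ran between 5.32 and 1207 TPM in 127 strains (median 385), lay between the limits in 33 strains and were below 0.1 TPM in 47 strains, 46 of them at exactly 0. The cultures of CB4856 thus lay below all those of N2. The related nspd-8 (Y23H5B.9) on chromosome I had the reverse distribution, with 155 strains below 0.1 TPM, CB4856 and N2 among them at 0 in all cultures, and 25 strains at 5 TPM or more. Its highest strain, MY920, had 733, 883 and 672 TPM. nspc-20 (D1025.4) on chromosome X, of another nematode-specific peptide family, had a median of 98.0 TPM in 129 strains and was below 0.1 TPM in 42. Y94H6A.10 on chromosome IV, a protein-coding gene with no symbol, was at 5 TPM or more in 64 strains (5.98 to 384 TPM, median 128) and below 0.1 TPM in 131. It had 0, 0 and 0 TPM in CB4856, against 155, 115 and 82.7 TPM in N2.

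**Figure D2:**
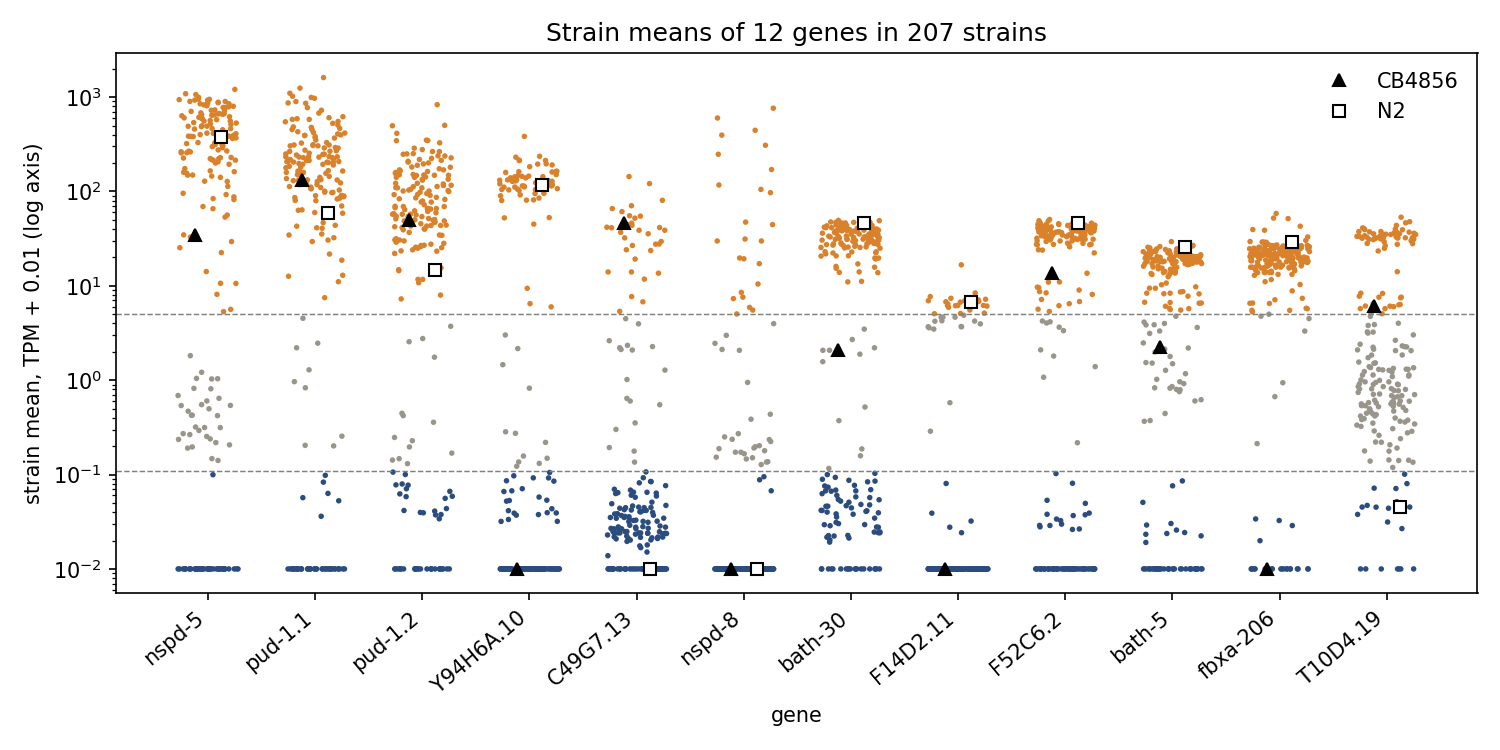
Strain means of 12 of the genes, each point a strain, as TPM + 0.01 on a log axis. Dashed lines mark the limits of 0.1 and 5 TPM, with strains at 5 TPM or more in orange, below 0.1 TPM in blue and between in grey; black triangles are CB4856 and open squares N2. fbxa-206 lies between the limits in 7 strains, bath-30 in 12 and T10D4.19 in many more.

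The range between the limits was filled to very different degrees. Over the longer genes, 38.3% of the strain means were at 5 TPM or more, 31.1% were below 0.1 TPM and 30.6% lay between. Of the values below 0.1 TPM, 75.3% were exactly 0. For example, fbxa-206 and its neighbour Y102A5C.2 had 7 and 4 strains between the limits, and clc-27 had 115. Among strains at 5 TPM or more, the standard deviation of log2(TPM + 0.5) between strains had a median of 0.46 over the longer genes, and that between cultures of a strain a median of 0.47. These spreads are of unlike kind, because a strain mean averages the cultures of a strain and only means at 5 TPM or more entered. They thus do not show whether strains differed beyond the spread of their cultures.

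The counts of strains just at the limits show how the rule cut. The genes with the most strains below 0.1 TPM were F14D2.11 with 169, the non-coding RNA gene Y53F4B.58 with 163, the microRNA gene mir-5548 with 158, nspd-8 with 155 and C49G7.13 with 154. Those with the fewest, 20 each, include math-4, math-26, T10D4.19 and clc-27. In all, 7 genes had exactly 20 strains below 0.1 TPM and 4 had exactly 20 strains at 5 TPM or more. Just outside, 5 genes had 19 strains below 0.1 TPM and enough at 5 TPM, and 11 genes had 19 strains at 5 TPM or more and enough below. Among them were plg-1, a mucin of the male copulatory plug, with 19 strains below and 175 at 5 TPM or more, and ctl-1, a catalase, with 154 below and 19 at 5 TPM or more.

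By annotation, the 183 genes were 104 protein-coding genes, 34 pseudogenes, 28 ncRNA genes and 5 genes each for miRNA, snRNA and snoRNA, with 1 lincRNA and 1 rRNA gene. Pseudogenes made up 18.6% of them, beside 2.13% of all genes that reached 5 TPM in at least 20 strains. Among the longer genes, 94 were protein-coding and 25 were pseudogenes. The 61 short-transcript genes held all 5 miRNA entries (mir-5548, let-7, mir-8199, mir-4815 and mir-238), all snRNA and snoRNA genes and 25 of the 28 ncRNA genes. The libraries were made from poly(A) RNA, and the mature RNAs of these classes mostly carry no poly(A) tail. The longer genes had a longest transcript of 859 nucleotides (median; quartiles 509 and 1127) and a median of 3 exons in the transcript with most exons, beside 1333 nucleotides and 6 exons in the other 9790 genes of like read value that reached 5 TPM in 20 strains and have a model. Of the longer genes, 74 (60.7%) had no gene symbol, beside 37.6% of those other genes. Their median level in strains at 5 TPM or more was 8.49 TPM, beside 25.4 TPM, and the rule itself used this scale.

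Ubiquitin-ligase adaptor families held the most named members. Families were taken by gene symbol, so annotated pseudogenes such as bath-6, bath-22 and fbxa-207 are counted. Of 36 genes with MATH and BTB symbols that reached 5 TPM in at least 20 strains, 15 (41.7%) met the rule. They were bath-2, bath-3, bath-4, bath-5, bath-6, bath-7, bath-19, bath-22, bath-27, bath-28, bath-30, btb-4, math-4, math-22 and math-26. All 15 lay on chromosome II in groups of neighbouring members, so they are not 15 separate places. Of 55 F-box genes, 10 (18.2%) met it: fbxa-64, fbxa-65, fbxa-129, fbxa-193, fbxa-200, fbxa-206, fbxa-207, fbxa-210, fbxb-97 and fbxc-42. Also among the members was skr-6, for a SKP1-related subunit that joins F-box proteins to their ligase, which is 1 of 20 such genes. The share over all genes at 5 TPM in 20 strains was 1.79%. Of other families, 2 of 52 C-type lectin genes (clec-10 and clec-49), 1 of 38 histone genes (his-48) and 1 of 23 glutathione transferase genes (gst-22) met the rule. No member came from the 66 nuclear hormone receptor genes, 121 cuticle collagen genes, 45 major sperm protein genes, 31 glucuronosyltransferase genes, 22 cytochrome P450 genes or 92 secreted immune effector genes that reached 5 TPM in 20 strains. Of the 4 toxin and antidote genes peel-1, zeel-1, sup-35 and pha-1, 1 reached that level, and none met the rule. Histone genes are near-identical copies, so the value of his-48 can hold reads of others.

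The highest MATH and BTB genes lay side by side on chromosome II. bath-30 (F14D2.12) had strain means between 11.005 and 49.4 TPM in 118 strains (median 32.5), and it was below 0.1 TPM in 77 strains. It had 3.21, 2.22 and 0.766 TPM in the cultures of CB4856, against 44.2, 52.7 and 42.0 TPM in those of N2. bath-28 (F14D2.13), its neighbour, had a median of 20.4 TPM in 110 strains and was below 0.1 TPM in 90, with 0 in all cultures of CB4856, against 12.0, 15.9 and 11.2 TPM in N2. For both genes the CB4856 and N2 cultures did not overlap. Of the F-box genes, fbxa-206 (Y102A5C.1) on chromosome V reached 20.6 TPM as the median of 177 strains and was below 0.1 TPM in 23, and fbxa-210 (Y37H2A.5) reached 19.2 TPM as the median of 167 strains and was below 0.1 TPM in 22.

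The genes lay mainly on the outer parts of chromosomes II and V. Chromosome II held 58 and chromosome V 59 of the 183, or 31.7% and 32.2%, beside 17.0% and 17.5% of the genes that reached 5 TPM in 20 strains. Chromosome IV held 30, X 15, III 11 and I 10. When each chromosome was cut into 3 equal lengths, 92.3% of the members lay in the outer pieces, beside 58.1% of those genes. For the longer genes it was 97.5%, beside 57.8% of genes of like read value.

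**Figure D3:**
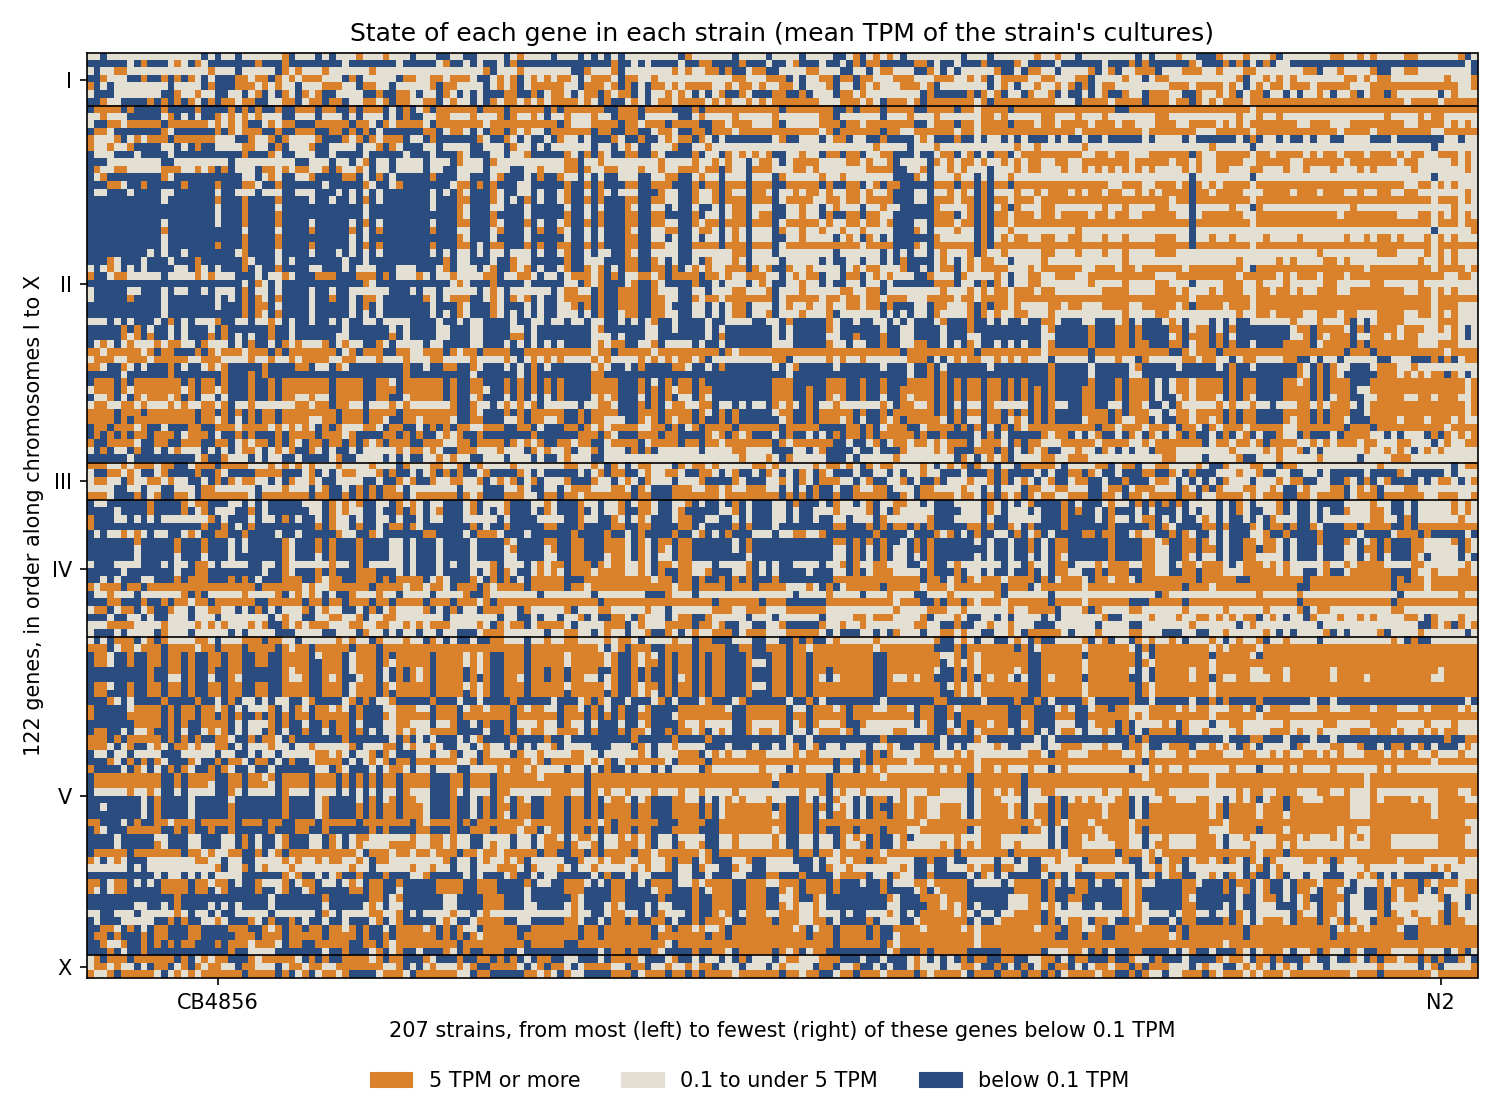
State of the 122 longer genes (rows, in order along chromosomes I to X) in each strain (columns, from the strain with the most of these genes below 0.1 TPM to the strain with the fewest). Orange marks a strain mean of 5 TPM or more, dark blue below 0.1 TPM and pale between; blue columns that run over adjacent rows on chromosomes II and V are neighbouring genes near 0 in the same strains, and CB4856 and N2 are marked.

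Many neighbouring members were in the same state in the same strains, but not all. Of the 183 genes, 99 lay in 26 groups in which each start was within 50 kb of the next, as did 72 of the 122 longer genes, in 18 groups. For each pair of longer genes, the strains in which both genes were past a limit were counted, and the share in opposite states was taken. Within 50 kb, the median share over 145 pairs was 5.41%, and in 36 of these pairs no strain was in opposite states. Over 572 pairs at 50 kb to 1 Mb the median was 29.97%, over 1412 pairs farther apart on a chromosome 48.1%, and over 5252 pairs on different chromosomes 48.2%. Pairs share strains and genes and are not independent, so no test is given. In 2 groups of 5 members each, no strain had all members below 0.1 TPM. Around F45D11.14 (chromosome II, 991600 to 1074012) 194 strains held members on both sides, and among its 3 longer genes, fbxc-42, F45D11.14 and K02E7.4, pairs were opposite in 38.8% to 86.0% of the strains. Around F19B2.5 (chromosome V, 20134606 to 20228829) 192 strains held members on both sides, and its 3 longer genes, F19B2.5, F19B2.12 and Y113G7B.14, were opposite in 20.9% to 56.2%.

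**Figure D4:**
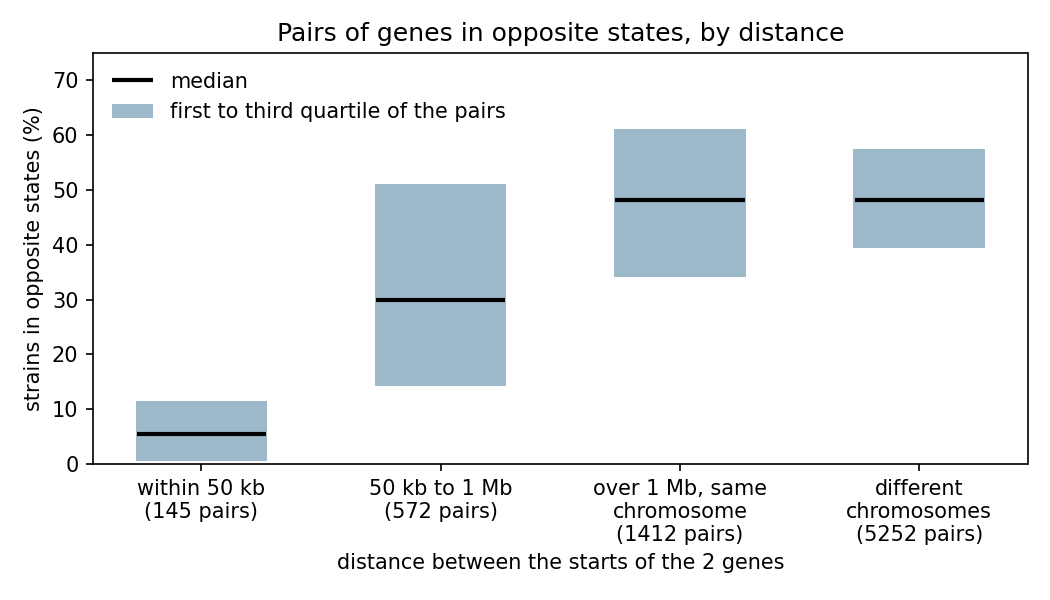
Percent of strains in which the 2 genes of a pair were in opposite states (below 0.1 TPM and at 5 TPM or more), for pairs of longer genes by the distance between their starts. Bars run over the middle quartiles of the pairs and black lines mark the medians of 5.41%, 29.97%, 48.1% and 48.2%, so close neighbours differ least.

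The largest group was a run of MATH and BTB genes and their neighbours on chromosome II (1846977 to 1930396, WBcel235), with 13 members. Its dense part, 24.993 kb that start at 1905404, held 11 of them: math-22 (C46F9.1), bath-4, bath-6, bath-7, bath-2, F52C6.4, F52C6.3, F52C6.2, bath-22, F52C6.12 and F52C6.13. All 11 were below 0.1 TPM in 26 strains, none was below 0.1 TPM in 106 strains, and in 30 strains some were below 0.1 TPM while others were at 5 TPM or more. Among the 55 pairs of the 11 genes, the share of strains in opposite states had a median of 2.60% and a highest value of 27.1%. The run thus was near 0 as a whole in some strains and in part in others. F52C6.2, its most abundant gene, was at 5 TPM or more in 123 strains (median 36.0 TPM) and below 0.1 TPM in 74, and bath-2 at 5 TPM or more in 107 (median 15.7 TPM) and below 0.1 TPM in 75. In 74 strains both were below 0.1 TPM, in 107 both were at 5 TPM or more, and in none were they opposite. F52C6.2 had 14.9, 10.99 and 14.9 TPM in CB4856, against 42.8, 50.1 and 46.0 TPM in N2, whereas bath-2 had 0.267, 0.493 and 0.343 TPM in CB4856, against 17.6, 21.8 and 24.4 TPM in N2. The nearest genes at 5 TPM or more in all strains were fdgt-1, 396 kb to the left, at 46.1 TPM or more, and F07E5.5, 124 kb to the right, at 38.2 TPM or more.

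Of the other members of this group, bath-4 (F52C6.8) had 11.2 TPM in CB4856 and 11.1 TPM in N2 as strain means, with a median of 8.35 TPM in 105 strains and 73 strains below 0.1 TPM. F52C6.4 had a median of 11.83 TPM but in 25 strains only, and 105 strains lay between the limits. F52C6.13, a pseudogene, had a median of 8.79 TPM in 92 strains and was below 0.1 TPM in 53. The outermost members were fbxb-97 (C52E2.6), at 5 TPM or more in 20 strains, and C16C4.18, in 103 strains. bath-22 (F52C6.1), annotated as a pseudogene like bath-6 (F52C6.9), stayed between 5.02 and 7.132 TPM in its 24 strains at 5 TPM or more.

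A further run of adaptor genes lay to the right on the same chromosome. The F59H6 group (2012998 to 2039388) held bath-5, bath-3, bath-19, btb-4, F59H6.15 and the pseudogene F59H6.3. All 6 were below 0.1 TPM in 10 strains and all 6 were at 5 TPM or more in 10 strains. bath-5 (F59H6.11) was the most abundant: 18.3 TPM as the median of 124 strains, and below 0.1 TPM in 50. It had 1.96, 2.51 and 2.19 TPM in CB4856, against 23.6, 26.7 and 27.8 TPM in N2. btb-4 had a median of 6.80 TPM in 81 strains, F59H6.15 of 8.79 TPM in 99, bath-3 of 5.74 TPM in 59, bath-19 of 5.85 TPM in 45 and F59H6.3 of 5.75 TPM in 32. The most abundant genes of both runs were near 0 in largely the same strains: bath-5 and F52C6.2 were both below 0.1 TPM in 49 strains, which is 98.0% of the 50 strains of bath-5 and 66.2% of the 74 strains of F52C6.2. Both were at 5 TPM or more in 109 strains, and in 15 strains F52C6.2 was below 0.1 TPM while bath-5 was at 5 TPM or more. The strains in which every gene of a run was below 0.1 TPM overlapped in 1 strain, of 10 for F59H6 and 26 for F52C6, and the strains with at most 1 gene of a run not below 0.1 TPM numbered 38 and 51.

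Further along chromosome II, the group of F54A3.7, mir-5548, B0281.5, ZK1240.3, ZK1240.2 and F43C11.7 (2247802 to 2337696) held 2 short-transcript genes and 4 longer ones. The 4 longer genes were all below 0.1 TPM in 46 strains. B0281.5, a protein-coding gene without a symbol, differed in that its highest strain was CB4856, with 65.1, 44.7 and 47.9 TPM, against 6.68, 7.33 and 6.65 TPM in N2. In the 22 strains where B0281.5 reached 5 TPM its median was 7.001 TPM, so that CB4856 stood well above the rest. ZK1240.3 and ZK1240.2 were at 0 in CB4856 and below 0.1 TPM in 135 and 127 strains. Of their strains at 5 TPM or more, 33 and 32 in number, none exceeded 10.3 and 11.9 TPM.

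In the F14D2 group (chromosome II, 3323761 to 3361451), genes next to each other were less alike. All 6 members were below 0.1 TPM in 32 strains, all 6 were at 5 TPM or more in 8, and 90 strains held members on both sides. F14D2.11, of unknown role, was below 0.1 TPM in 169 strains and exactly 0 in 164, whereas bath-30, which starts 3921 bases away, was below 0.1 TPM in 77. The 2 genes were in opposite states in 82 strains (45.6% of those in which both were past a limit). In 76 of the 77 strains in which bath-30 was below 0.1 TPM, F14D2.11 was as well, so the strains near 0 in bath-30 lay nearly all within those near 0 in F14D2.11. The most opposed close pair of longer genes was clec-49 (W04E12.6), for a C-type lectin, and the pseudogene M162.9 on chromosome V, 24440 bases apart, in 83 strains (59.7%).

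The pud genes on chromosome V had the highest levels among groups made of longer genes only. They are named for proteins that were found raised in daf-2 mutants, which have reduced insulin-like signalling. Within 8.89 kb (2322038 to 2330930) lay pud-1.2, pud-2.2, pud-3, pud-4, pud-2.1 and pud-1.1, with no other annotated gene that starts between them. All 6 were at 5 TPM or more in 101 strains, all 6 were below 0.1 TPM in 38 strains, and 16 strains held members on both sides. pud-2.1 and pud-2.2 had equal values in every sample, so reads could not be divided between them and they are effectively 1 measurement. pud-1.1 had a median of 203 TPM in 150 strains and was below 0.1 TPM in 48. Its highest strain, ED3012, had 3157, 1101 and 576 TPM, so that its cultures differed more than 5-fold. pud-1.1 was in the opposite state to pud-2.1 in 0 strains.

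CB4856 and N2 differed within this group in an uneven way. pud-1.1 had 124, 116 and 156 TPM in CB4856, against 28.5, 97.1 and 50.8 TPM in N2, and pud-2.1 had 166, 126 and 146 TPM in CB4856, against 25.3, 117 and 45.9 TPM in N2. pud-3 had 0 TPM in all cultures of CB4856, against 0.921, 7.60 and 4.30 TPM in N2, and pud-4 had 0 TPM in all cultures of CB4856, against 0.162, 2.15 and 0.949 TPM in N2. The cultures of CB4856 were thus above those of N2 in the first 2 genes and below them in the last 2, without overlap in any of the 4. pud-1.2 had 70.1, 40.9 and 38.0 TPM in CB4856, and in N2 only culture 2 had a value above 0.1 TPM, at 44.4 TPM. pud-1.1 and pud-1.2 are alike enough that an estimate may move reads between them.

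**Figure D5:**
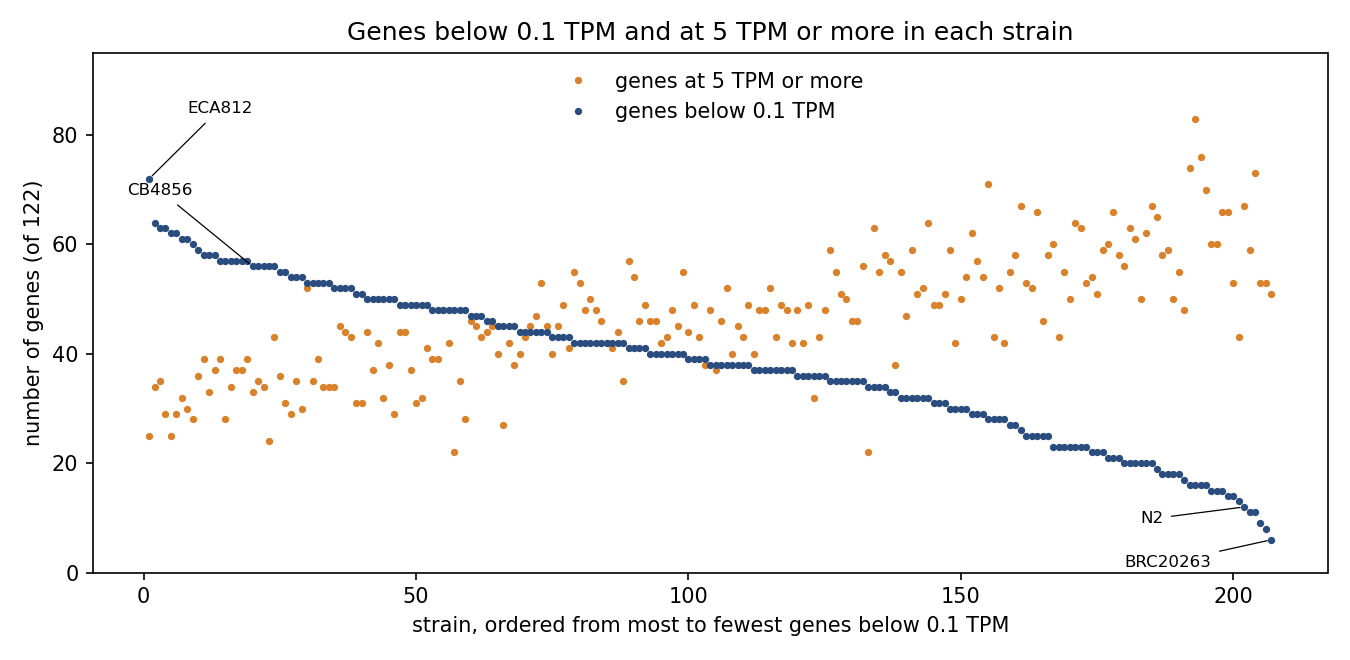
Number of the 122 longer genes below 0.1 TPM (blue) and at 5 TPM or more (orange) in each strain, ordered from most to fewest below 0.1 TPM. ECA812 stands at 72 and CB4856 at 56 genes below 0.1 TPM on the left, N2 at 12 and BRC20263 at 6 on the right.

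The Y102A5C group on chromosome V (16917201 to 16930063) separated CB4856 from N2 completely. Its 6 members are fbxa-206, Y102A5C.2, Y102A5C.36 and the pseudogenes fbxa-207, Y102A5C.5 and Y102A5C.6. All cultures of CB4856 were at 0 TPM for all 6, against 23.5, 33.4 and 30.4 TPM for fbxa-206 and 16.8, 21.0 and 17.4 TPM for Y102A5C.2 in N2. All 6 were below 0.1 TPM in 23 strains and at 5 TPM or more in 24. fbxa-206 and Y102A5C.2 were both below 0.1 TPM in 23 strains, both at 5 TPM or more in 175 and opposite in none, which was the highest number of shared states among pairs within 50 kb with no opposite strain. Y102A5C.36, Y102A5C.5 and Y102A5C.6 were below 0.1 TPM in 71, 71 and 69 strains, so these 3 genes were near 0 in more strains than their neighbours, and 49 strains held members on both sides.

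On chromosome IV, scrm-5 (K08D10.8) and scrm-8 (K08D10.7), for members of the phospholipid scramblase family, and the pseudogene R07C12.2 were below 0.1 TPM together in 126 strains, with no strain on both sides. scrm-5 had 0 TPM in all cultures of CB4856, against 6.70, 4.67 and 1.84 TPM in N2. It was at 5 TPM or more in 42 strains with a median of 8.90 TPM. The number of strains with every longer gene of a group below 0.1 TPM thus differed widely. It was 0 around F45D11.14, 10 for the 6 genes of F59H6 and 126 for the 3 genes here. Such a number cannot rise as genes are added, so groups of unlike size are not compared evenly.

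Members on different chromosomes were rarely so alike. The closest such pair was Y26D4A.25 on chromosome I and Y40C7B.8 on X, both non-coding RNA genes, which were both below 0.1 TPM in 50 strains, both at 5 TPM or more in 52 and opposite in none. Y40C7B.9, which lies beside Y40C7B.8, was likewise opposite to Y26D4A.25 in no strain, with 40 and 52 strains in the shared states. mir-5548 and mir-4815 were opposite in 1 strain, with 78 strains below 0.1 TPM in both and 38 at 5 TPM or more in both. C35E7.12 on chromosome I was opposite in no strain to a pair of neighbouring genes on chromosome IV, with 48 and 27 strains in shared states. In all 5 of these pairs at least 1 gene is a short-transcript gene, and whether reads of like sequence were assigned to both genes was not tested. Among longer genes on different chromosomes, no pair was free of opposite strains.

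The number of genes near 0 varied widely over the strains. Of the 122 longer genes, a median of 38 were below 0.1 TPM in a strain and a median of 46 were at 5 TPM or more. The most were below 0.1 TPM in ECA812 with 72, followed by MY23 with 64, ECA594 and NIC251 with 63 each, and JU2526 and QX1792 with 62 each. The fewest were in BRC20263 with 6, JU2862 with 8, MY2212 with 9, and BRC20067 and NIC2 with 11 each. CB4856 had 56 below 0.1 TPM, 33 at 5 TPM or more and 33 between, against 12, 67 and 43 in N2. N2 was at rank 6 from the low end. The 2 strains were in opposite states in 35 of the 59 longer genes in which both were past a limit (59.3%), and over all 21321 pairs of strains the median was 39.0%.

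In some strains with low counts the cultures disagreed, and in others they did not. In BRC20263, 18, 45 and 12 longer genes were below 0.1 TPM in cultures 1, 2 and 3, so that the mean was near 0 in fewer genes than any single culture, and culture 1 had 212117178 counts. In MY2212 the numbers were 35, 41 and 11, and in BRC20067 they were 45, 22 and 22. In JU2862 they were 22, 26 and 11 and in ED3005 51, 15 and 50. The means of these 2 strains, with 8 and 13 genes, were also near 0 in fewer genes than any single culture. In N2 they were 13, 12 and 14 and in NIC2 14, 14 and 11. Without the 11 cultures that stood apart, JU2862 had the fewest with 8, followed by BRC20263 and NIC2 with 11 and N2 with 12. No culture of JU2862 was among the 11, so its number still came from divided cultures. ECA812 kept the most with 72, followed by ECA372 with 70. The part of mixed or misassigned cultures in these numbers was not tested.

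In N2, 27 of the 183 genes were below 0.1 TPM, among them 12 longer genes. The 12 with the highest level where expressed include T27A10.8, rrn-4.15, nspd-8, Y40C7B.9, Y40C7B.8, the snoRNA gene M01D1.11 and Y26D4A.25. C39B5.10 on chromosome III, a protein-coding gene without a symbol, had 312, 211 and 172 TPM in CB4856, against 0 in all cultures of N2. It was at 5 TPM or more in 45 strains, with 798, 626 and 1306 TPM in ECA703. C49G7.13 on chromosome V had 37.0, 46.5 and 54.8 TPM in CB4856, against 0 in all cultures of N2, and was at 5 TPM or more in 35 strains. T10D4.19 had 9.94, 3.06 and 5.32 TPM in CB4856, against 0, 0 and 0.105 TPM in N2, and its 68 strains at 5 TPM or more had a median of 32.2 TPM. Y46C8AL.12, a pseudogene, had 9.78, 11.6 and 11.9 TPM in CB4856, against 0, 0 and 0.259 TPM in N2. In these 4 genes every culture of CB4856 was above every culture of N2, a direction that follows largely from listing genes near 0 in N2. Y6D1A.3, also a pseudogene, had strain means of 0.124 TPM in CB4856 and 0.0573 TPM in N2, and its 76 strains at 5 TPM or more had a median of 33.8 TPM. These genes are in the N2 annotation, so their absence from the N2 values is not an absence from the reference transcriptome.

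The short-transcript genes with the most divided cultures were C28A5.9 in 137 strains, Y48B6A.25 in 116, rrn-4.15 in 115 and the pseudogenes Y42A5A.6 in 96 and R07B5.10 in 92. The first 2 are annotated as non-coding RNA genes. Their medians in strains at 5 TPM or more were 10.9 and 9.54 TPM, at 2.01 and 1.08 TPM per read. For these 2 genes a strain mean at that median rests on a few reads, and their levels in single strains are not given. The level of rrn-4.15 was higher, with a median of 136 TPM in 127 strains at 5 TPM or more, although its cultures were divided as well.

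The 1 comparison of the series that the rule did not use was that between years. The labels name for each culture a sequencing pool with 1 of 2 successive years, and 136 strains had cultures in pools of both years, 157 cultures in the later year and 250 in the earlier year. The year was tested within strains with limma on log2(normalized TPM + 0.5), with strain as a block and Benjamini-Hochberg adjustment over all 16649 genes that passed a filter on low counts. That filter kept 143 of the 183 members. At an adjusted p under 0.05, 13 of these 143 members were called, 8 higher and 5 lower in the later year, while 23.1% of all genes tested were called. The difference between these shares was not tested, and the members that the filter removed have no result. On raw TPM, 7377 genes were called, 281 higher and 7096 lower in the later year, against 1836 higher and 2010 lower with normalized TPM, and 22 members were called, 6 higher and 16 lower. Some pool names of the later year hold 4 digits in place of 2, as if the numbers of 2 pools were joined. The labels do not say whether their cultures also hold reads of an earlier pool, and the main test counts them in the later year. Without the cultures of these pools, 5056 genes and 12 members were called. Of these members 4 were higher and 8 lower, so the balance of directions among members turned. The count of members also changed when 1 replicate of each strain was left out. It was 14 without replicate 1, 4 (1 higher and 3 lower) without replicate 2 and 0 without replicate 3. Over all genes, 3015, 1894 and 295 were called in these settings, in place of 3846. The settings held fewer cultures, 228, 270 and 44, the last of 22 strains only.

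Of the 6 pud genes, 3 were higher in cultures of the later pools, and pud-1.1 and the pair of pud-2.1 and pud-2.2 did not pass the test. pud-1.2 (Y19D10B.7) had a median of 48.3 normalized TPM in the later year (0 to 1256) and 30.5 in the earlier year (0 to 725). Its log2 difference was 0.69 (SE 0.12, limma adjusted p = 2.39e-06), and it was higher in the later year in 86 of 136 strains and lower in 36. pud-3 and pud-4 rose by 0.33 and 0.31 on the log2 scale, with limma adjusted p of 0.0103 and 0.00514. pud-3 was higher in 65 strains and lower in 43, and pud-4 was higher in 60 and lower in 40. The ranges of the years overlapped throughout. Y48B6A.25, a non-coding RNA gene, had the largest difference at 1.15 (SE 0.24, limma adjusted p = 5.98e-05), with medians of 2.48 in the later year and 0 in the earlier year, and was higher in 73 strains and lower in 44. The pseudogene B0513.12 rose by 0.60 (SE 0.18, limma adjusted p = 0.00708), with medians of 1.18 in the later year and 0 in the earlier year, and was higher in 69 strains and lower in 55. nspd-5 rose by 0.33 within strains (SE 0.12, limma adjusted p = 0.0283), higher in 67 strains and lower in 38, although its median over all cultures was 75.6 in the later year and 80.1 in the earlier year, and its sign turned to -0.13 without replicate 3 (limma adjusted p = 0.856). T27A10.8 was lower in the later year, by a log2 difference of -0.54 (SE 0.15, limma adjusted p = 0.00449), lower in 69 of 136 strains and higher in 42. Only the pool is dated in the labels, so effects of cultures, extractions and pools cannot be told apart. Of these 7 genes, none was called without replicate 3, where pud-3 and pud-4 turned to -0.15 and -0.14. Without replicate 2, pud-1.2 and T27A10.8 were called (limma adjusted p of 0.00732 and 0.0323) and the other 5 were not. Without replicate 1, T27A10.8 and nspd-5 were not called (limma adjusted p of 0.103 and 0.0749), and without the pools of 4 digits nspd-5, pud-3 and pud-4 were not (limma adjusted p of 0.0669, 0.0952 and 0.0692). With a pseudocount of 0.1, nspd-5 and pud-3 were not called (limma adjusted p of 0.0834 and 0.0632). Without the filter on low counts, nspd-5 was not called (limma adjusted p = 0.0518).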

How the data were processed

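The authors trimmed the reads with fastp 0.20.0 and pseudoaligned them with kallisto 0.44.0 to N2 transcriptomes (WormBase release WS276) carrying the single-nucleotide variants of each strain. The deposited tables hold estimated counts and raw TPM of 65173 transcripts and 157 transposable elements, not normalized between samples. For their own analyses the authors left out, strain by strain, transcripts in regions of extreme sequence divergence, where the paper says levels might be underestimated. They also dropped outlier samples by distances between samples. Neither step was taken here. TPM and counts were summed by sequence name, without the elements, over 609 samples. Totals ran from 15461168 to 280262722 counts. The spread between cultures contains the counting error, so it has no interval of its own. Positions and biotypes came from Ensembl (WBcel235), in which 46917 of 46929 genes were found, and symbols from RefSeq. The members, gene lists and the naming rule (highest, most and least often near 0, near 0 in N2, largest groups, closest pairs, most divided, largest year differences) were chosen with earlier results of these data known. Strains came from the labels. Replicate numbers follow accession order. For the year test, TPM was divided by median-ratio factors, and genes needed 5 normalized counts in all cultures of 10 strains. limma 3.58.1 under R 4.3.3 was used and tested on simulated data. The labels give no replicate numbers.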

Additional observations from a re-analysis of the deposited data

How the results depend on the processing

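The number of genes that met the rule depended on its limits. It was 81 with limits of 0.05 and 10 TPM, 805 with 0.2 and 2 TPM, 394 with at least 10 strains on each side, 84 with at least 40 strains, and 101 when every culture of a strain had to be past the limit, in place of 183. With CPM in place of TPM it was 115, of which 83 were among the 183. It was 180 with normalized TPM (176 shared), 177 with the highest transcript of a gene, 188 without the 11 cultures that stood apart, and 244 to 254 without 1 replicate. The number of strains below 0.1 TPM stayed within 1.5 times its value for all 60 named genes with normalized TPM and without the 11 cultures, and moved further for 7, 5 and 9 of them without replicate 1, 2 and 3. In 91.9% of pairs the cultures were not split across both limits (in 50.7% all were past the same limit), and in 79.6% they were not split by a single limit of 0.5 TPM. In the year test, 7 members were called with a pseudocount of 0.1 and 22 on raw TPM, in place of 13, and 0 to 14 without 1 replicate; over all genes it was 7377 on raw TPM in place of 3846, and 295 to 3015 without 1 replicate. Raw TPM moved the median difference of all genes to -0.07. nspd-5 ran between -0.13 and 0.37 without 1 replicate, in place of 0.33. The cause of these changes was not tested. Members within 50 kb of another numbered 99, with 82 at 20 kb and 105 at 100 kb. No paired analysis was possible because the labels give no replicate numbers that pair cultures across strains, and the year test itself compared cultures within strains. The search for near-identical proteins was not run, and genes with equal values in all samples were listed instead, a choice made after seeing the data, like those on the worth of a read and on the 11 cultures. For short transcripts, depth limits what a value near 0 can show.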
